A study of Mus musculus with 16 samples.

Results

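The accessible regions described here are the CpG-poor promoters of protein-coding genes in mouse ES cells that face a single direction. A region was taken if it lay on an autosome and its centre fell between 1000 bp before and 100 bp after a transcription start site (TSS) of a protein-coding gene in the GENCODE M21 annotation. The TSS could have no TSS of a gene on the opposite strand within 1000 bp. Over its own mm10 bases the region had a CpG observed/expected ratio (the number of CpG pairs divided by the number that its C and G content would give) below 0.6 or a GC content below 55%. Of the 81132 regions in the deposited list, 4547 (5.6%) met the rule. They belonged to 3888 of the 20807 autosomal protein-coding genes (18.7%), while 11327 genes (54.4%) had an accessible promoter region of any class. The class set beside them throughout is the 6523 CpG-rich regions, which met the same rules of position and direction but neither base criterion.

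ATAC-seq marks open chromatin, because the transposase Tn5 cuts and tags DNA where nucleosomes leave it accessible. The cells were SBROS, a knock-in mouse ES cell line of CGR8 background in which both Sox2 alleles carry a SNAP-tag and an Oct4 allele carries a HALO-tag, sorted in G1 phase by the levels of both proteins. The groups were SHOH (SOX2 high, OCT4 high), SHOL (SOX2 high, OCT4 low), SLOH (SOX2 low, OCT4 high) and SLOL (SOX2 low, OCT4 low), with 3 replicates each and 12 libraries in all. The list pools the peaks of every library and gives coordinates without a level, a score or a library, so the reads behind a region are not known from it, no replicate error can be attached to a region, and the groups were not compared. The line is a tagged derivative of a single ES cell background, and ChIP-seq samples from the series were not analysed here.

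Mammalian promoters fall into classes by their base content. CpG islands are GC-rich stretches that keep their CpG pairs because they are mostly unmethylated in the germ line, and they hold the start sites of most housekeeping and many developmental genes. CpG-poor promoters have lost most of their CpG pairs, are more often methylated, serve many tissue-restricted genes, and are known to depend on sequence-specific activators for their opening.

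The sequences below come from CpG-poor regions, all but the last at genes of the pluripotency list, and show what the motifs look like in place. They were searched over whole regions, so some lie outside the 300-bp windows used for the counts further on. Each is read 5′ to 3′ on the strand of its gene in mm10 and stays clear of annotated exons, and the capitals mark the match. The octamer ATGCAAAT is the classic binding motif of POU factors such as OCT4, and it may stand on either strand. In Zfp42, which encodes the naive-state marker REX1, it was centred 212 bp upstream of the TSS (chr8:43307143-43307240, minus strand).
Zfp42 octamer: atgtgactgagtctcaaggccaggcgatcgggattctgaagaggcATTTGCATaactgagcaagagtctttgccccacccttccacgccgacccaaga
In Dppa2, a chromatin-associated pluripotency gene, it was centred 491 bp downstream of the TSS (chr16:48304350-48304447, plus strand).
Dppa2 octamer: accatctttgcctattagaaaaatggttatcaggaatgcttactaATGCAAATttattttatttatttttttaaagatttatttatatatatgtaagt
In Tdh, the threonine dehydrogenase of ES cell metabolism, an octamer was centred 320 bp and a SOX motif 261 bp upstream of the TSS (chr14:63500472-63500627, minus strand).
Tdh octamer and SOX motif: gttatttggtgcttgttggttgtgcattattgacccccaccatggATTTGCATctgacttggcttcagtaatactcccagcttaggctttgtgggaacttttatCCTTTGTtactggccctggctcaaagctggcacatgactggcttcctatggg

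The SOX motif was searched as CCATTGT or CCTTTGT on both strands. Pou5f1, the gene of OCT4 itself, had it centred 844 bp upstream of the TSS (chr17:35505126-35505222, plus strand). Its second accessible region, over the TSS, held a GC box, GGGCGG, centred 28 bp upstream of the TSS (chr17:35505942-35506017, plus strand).
Pou5f1 SOX motif: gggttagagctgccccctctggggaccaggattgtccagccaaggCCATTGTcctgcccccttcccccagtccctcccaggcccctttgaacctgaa
Pou5f1 GC box: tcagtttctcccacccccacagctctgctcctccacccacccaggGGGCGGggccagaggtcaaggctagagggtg
Other matches are shown for comparison of the bases around them. Tet1, an enzyme that oxidises methylcytosine, had a SOX motif centred 150 bp upstream of a TSS (chr10:62865406-62865502, minus strand), Dppa4, the partner of Dppa2, 121 bp downstream (chr16:48283860-48283956, plus strand), and Dppa2 124 bp upstream (chr16:48303736-48303832, plus strand).
Tet1 SOX motif: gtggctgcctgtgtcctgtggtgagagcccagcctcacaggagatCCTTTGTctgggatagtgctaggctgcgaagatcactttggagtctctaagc
Dppa4 SOX motif: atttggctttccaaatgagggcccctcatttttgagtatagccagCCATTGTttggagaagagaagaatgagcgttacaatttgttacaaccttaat
Dppa2 SOX motif: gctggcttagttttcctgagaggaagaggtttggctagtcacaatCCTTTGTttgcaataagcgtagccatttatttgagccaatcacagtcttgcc
Spp1, which encodes the secreted protein osteopontin, had a SOX motif centred 992 bp upstream (chr5:104434078-104434174, plus strand) and another 465 bp upstream (chr5:104434605-104434701, plus strand), and Mras, a small GTPase, had one 502 bp upstream (chr9:99420606-99420661, minus strand).
Spp1 far SOX motif: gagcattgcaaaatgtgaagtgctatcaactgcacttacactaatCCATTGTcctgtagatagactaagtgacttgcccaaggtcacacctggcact
Spp1 near SOX motif: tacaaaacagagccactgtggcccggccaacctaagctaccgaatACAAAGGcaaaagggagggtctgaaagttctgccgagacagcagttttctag
Mras SOX motif: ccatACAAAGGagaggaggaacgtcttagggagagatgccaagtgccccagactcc
Mybl2, a cell cycle transcription factor, held the ESRRB motif TCAAGGTCA, on its other strand, 50 bp upstream of a TSS (chr2:163059250-163059328, plus strand).
Mybl2 ESRRB motif: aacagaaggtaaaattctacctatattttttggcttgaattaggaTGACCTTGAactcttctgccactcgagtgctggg
A composite of a SOX core (CATTGT or CTTTGT) 1 base before a POU core (ATGCAAA) on the same strand was found in a single CpG-poor region, at Prune2 (chr19:17138301-17138404, plus strand), where it was centred 386 bp upstream of the TSS.
Prune2 composite: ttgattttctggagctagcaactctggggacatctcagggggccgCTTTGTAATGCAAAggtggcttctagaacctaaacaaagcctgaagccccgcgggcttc
A match is a description of letters and not a measured binding site.

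Most CpG-poor regions were poor by the ratio. Of the 4547 regions, 2196 (48.3%) met the CpG ratio alone, 432 (9.5%) the GC content alone and 1919 (42.2%) both. At the edge of the ratio, the region of Pfkp, a phosphofructokinase, had 0.5999 and was inside, and that of Tfap2a, the transcription factor AP-2 alpha, had 0.6 and was outside. At the edge of the GC content, Spryd4 had 54.99% and was inside, and Necap1, an endocytosis protein, had 55% and was outside. The members had a median of 11.0 CpG pairs per region, and 121 (2.66%) had none.

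CpG-poor promoter regions were narrower than CpG-rich ones and wider than regions outside promoters. These are widths of peaks merged over 12 libraries. Without levels, width cannot be told apart from signal strength or from the number of libraries with a peak. Their median width was 424 bp (95% interval 414 to 438) with quartiles of 257 and 652.5 bp, against 713 bp (705 to 722) for CpG-rich regions and 320 bp (318 to 322) for the 62762 autosomal regions centred outside promoters. Among the members, 679 (14.9%) were under 200 bp wide, against 244 (3.74%) of the CpG-rich regions, a difference of 11.2 percentage points (95% interval 10.1 to 12.3). Outside promoters this share was 22.6%, from which the members differed by -7.7 points (-8.76 to -6.58). Regions over 1000 bp made up 4.4% of the members and 17.3% of the CpG-rich regions. Width also varied with the criterion met. Regions poor by GC content alone had a median width of 663 bp, those poor by the ratio alone 451 bp, and those poor by both 356 bp. The 3 groups of members thus spanned most of the distance between CpG-rich promoters and regions outside promoters, as the plot of cumulative width shows.

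**Figure D1:**
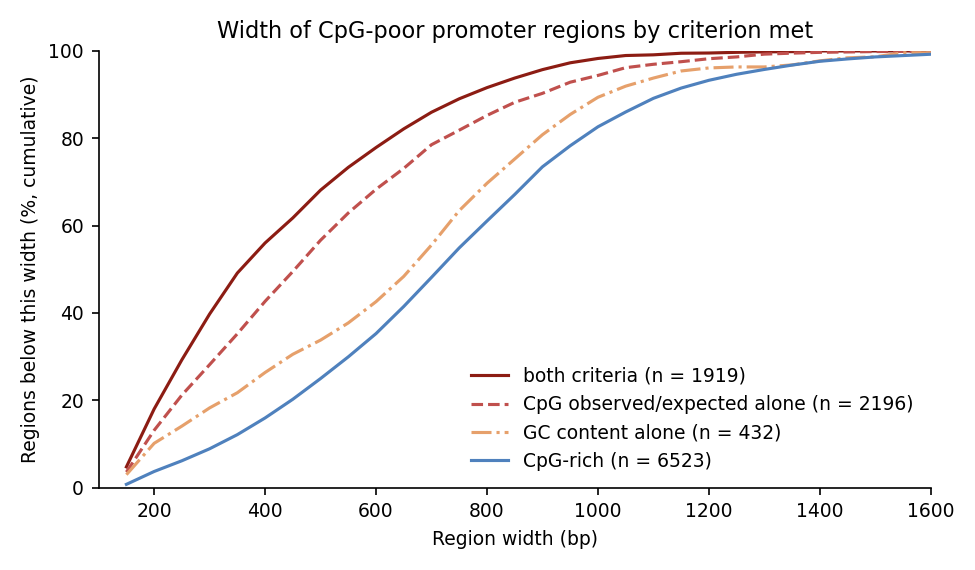
Cumulative share of regions (vertical axis, %) below each width (horizontal axis, bp) for the 3 groups of CpG-poor regions, by the criterion they met, and for the 6523 CpG-rich regions. The line of regions poor by both criteria rises earliest (median 356 bp) and that of the CpG-rich regions last (median 713 bp).

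The open stretch often missed the annotated start. A CpG-poor region covered its TSS in 2926 of 4547 cases (64.4%, 95% interval 62.9 to 65.7), and a CpG-rich region in 5734 of 6523 (87.9%, 87.1 to 88.7), a difference of -23.6 percentage points (-25.2 to -22.0). With promoters that begin 500 bp upstream, this difference in TSS coverage was -13.1 points. Regions lying wholly upstream of the TSS made up the rest almost entirely, with 35.4% of the members and 11.9% of the CpG-rich regions. Only 11 members lay wholly downstream, which the definition by the centre limits to the first 100 bp of the gene. By the same definition, a region over an earlier start of a gene can be counted as upstream of a later TSS. This holds if its centre lies over 100 bp past the earlier start. The centre of a member was a median of 97 bp upstream of the TSS (-97.0 on the scale of the plot), against 25 bp (-25) for CpG-rich regions. Centres over 500 bp upstream were found in 868 of the 4547 members and in 338 of the 6523 CpG-rich regions (5.18%), a difference of 13.9 points (12.7 to 15.2).

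**Figure D2:**
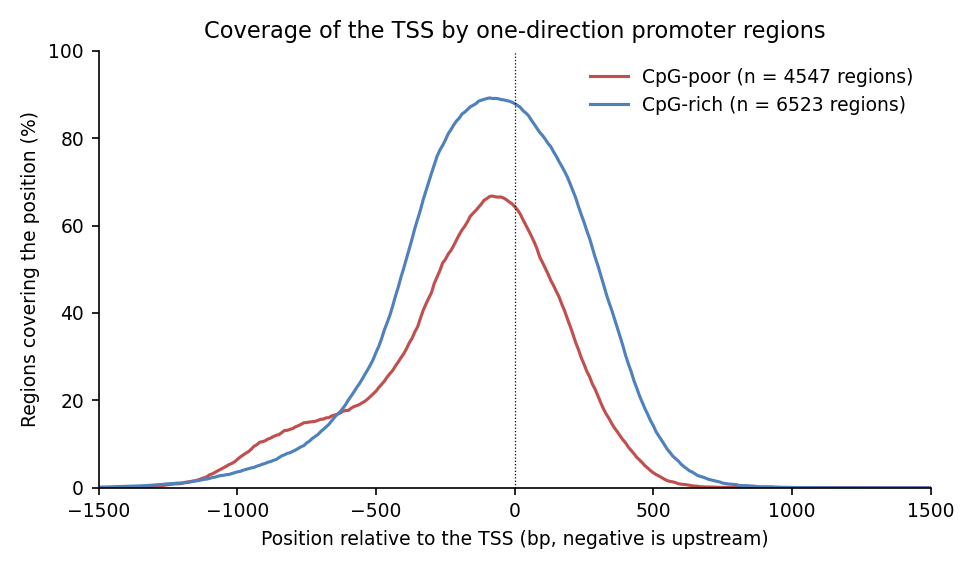
Share of regions (vertical axis, %) that cover each position relative to the TSS of their gene (horizontal axis, bp, negative is upstream) for CpG-poor and CpG-rich promoter regions. Coverage was highest 80 bp upstream in the CpG-poor class (66.8%) and 90 bp upstream in the CpG-rich class (89.2%), and at 1000 bp upstream the CpG-poor line is the higher (6.49% against 3.65%).

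Within the class, coverage of the start followed the CpG ratio. Among members with a ratio below 0.1, 82 of 272 (30.1%, 95% interval 25 to 35.8) covered the TSS and the median width was 228 bp. At a ratio from 0.3 to 0.4 the share was 63.6% (60 to 67.1) and the median width 375 bp. At 0.5 to 0.6 it reached 79.2% (76.7 to 81.5) with a median of 578 bp. Each step of 0.1 in the ratio brought a higher share and a larger median width. The ratio was computed over the bases of the region itself, so a region that stops short of a CpG island at the TSS is classed by its upstream bases. Classing instead by the bases 250 bp on both sides of the TSS, an alternative added after seeing the data, put 3638 of the members in the CpG-poor class and gave a difference in TSS coverage of -20.7 points (-22.3 to -19.0).

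Starts that a member missed mostly lay outside the list. Of the 1621 members that did not cover their TSS, 1283 (79.1%) had a TSS that no region covered, and 338 (20.9%) had a TSS covered by another region. That other region was CpG-rich in 145 cases and CpG-poor in 108. Esrrb, an orphan nuclear receptor of the naive state, shows the first kind of layout. A member of 140 bp ended 7 bp short of a TSS that was not the first base of the gene record (chr12:86421498-86421637). Pou5f1 shows the other, with a distal member of 387 bp centred 926 bp upstream (chr17:35504899-35505285) and a proximal member of 501 bp over the same TSS (chr17:35505809-35506309).

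The annotated starts behind CpG-poor regions were also less firmly annotated. The TSS belonged to a transcript annotated as protein-coding in 64.4% of members and 73.4% of CpG-rich regions, a difference of -9.0 points (95% interval -10.8 to -7.24). It belonged to a transcript tagged basic, GENCODE's set of more complete models, in 51.6% against 62.7%. The TSS was the first base of the gene record in 37.8% of the members and 43.6% of the CpG-rich regions. Many members therefore sat at a TSS other than the first base of the gene record, as did many CpG-rich regions. The distance of such a TSS from that first base, and its use, were not measured.

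Few members consisted mostly of repeats. No repeat base was found in 1338 members (29.4%) and in 28.6% of the CpG-rich regions, so most regions of both classes held some. In 162 members (3.56%, 95% interval 3.06 to 4.14) repeats made up at least 50% of the bases, against 1 CpG-rich region (0.0153%) and 16.5% of regions outside promoters. Members poor by both criteria carried most of these, with 137 of 1919 (7.14%). Members had another region within 1000 bp in 29.6% of cases and CpG-rich regions in 29.7%, and the interval of that difference includes 0 (-0.0797 points, -1.8 to 1.66). Both shares were above the 20.1% of regions outside promoters. The closest CpG-rich or bidirectional promoter region was a median of 35226 bp away, and 415 members (9.13%) had it within 2000 bp, so most had no open promoter of these classes close by.

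Most genes with a CpG-poor region had no region counted as a promoter of another class. A region over a start but centred over 100 bp into the gene is not counted here, so other starts may also be open. Of the 3888 genes with a member, 2680 (68.9%) had no promoter region of another class, 966 (24.8%) also had a CpG-rich region and 270 (6.94%) a bidirectional region. A single member was found at 3336 genes, 2 members at 466, 3 at 71 and 4 or more at 15. In genes with both classes, the TSS of the member was a median of 11340 bp from the CpG-rich TSS, and it lay downstream of it for 755 of 1164 members (64.9%). Of these members, 811 (69.7%) had a TSS over 2000 bp from the CpG-rich one, and 99 (8.51%) shared its TSS.

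The genes with the most members had them at several annotated starts. Rgs3, which encodes a regulator of G-protein signalling, had 6, from a 956-bp region (chr4:62582961-62583916) to a 223-bp region (chr4:62619448-62619670). Dab2ip, a GTPase-activating protein for Ras, had 5, of which a single one covered its TSS (774 bp, chr2:35691339-35692112). Pde4d, a cyclic AMP phosphodiesterase, had 5, the widest 1133 bp (chr13:109684805-109685937). Scarb1, the receptor for high-density lipoprotein, had 5 with CpG ratios from 0.0829 to 0.535. Sept9, a cytoskeletal septin, also had 5, and 3 of them covered their TSS.

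The widest members differed in composition. Rpsa, a ribosomal protein gene also known for its laminin receptor product, had the widest at 2019 bp (chr9:120127590-120129608), with 54.6% GC and a ratio of 0.635. Gm10775 followed at 1818 bp (chr13:65258231-65260048), with a ratio of 0.567, and Tex22, a testis-expressed gene, at 1773 bp (chr12:113073677-113075449), with a ratio of 0.382. Rif1, a regulator of replication timing and telomeres, had 1750 bp (chr2:52071168-52072917) with 52.2% GC and a ratio of 0.54, and so met both criteria. Bard1, the partner of BRCA1, had 1637 bp (chr1:71102356-71103992) with 86 CpG pairs, a ratio of 0.699 and 54.9% GC, so that GC content alone placed it in the class.

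At the other end were members with no CpG pair at all. Among the 3086 members of at least 300 bp, 21 had none, and the 5 named here, which come first when chromosome names are sorted as text, were at Mdm4, Nt5m, Rps6kb1, Serpina3i and Thoc7. The region of Mdm4, an inhibitor of p53, was 389 bp wide with 42.7% GC (chr1:133019324-133019712). That of Rps6kb1, the S6 kinase of the mTOR pathway, was 318 bp wide with 34.9% GC (chr11:86532982-86533299). Nt5m, a mitochondrial nucleotidase, had 310 bp (chr11:59847288-59847597). The region of Thoc7, a subunit of the mRNA export complex THO, was 65.9% repeats. Of these 5, only Serpina3i, a serine protease inhibitor gene, had a region that covered its TSS (371 bp, chr12:104262762-104263132).

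Seen from the genes, CpG-poor promoters were less often open than CpG-rich ones. Each autosomal protein-coding gene without an opposite-strand neighbour was classed with no regard to the list. The bases used ran from 1000 bp before to 100 bp after the start of the gene record. This class differs from that of the members, which rests on the bases of the region. CpG-rich regions were found at 6068 genes, but only 1423 genes had a CpG-rich promoter over this window. A gene classed CpG-poor here may thus be open through a CpG-rich region. Of 15135 genes with a CpG-poor promoter, 4465 (29.5%, 95% interval 28.8 to 30.2) had a region of the list centred in it, against 1204 of 1423 genes with a CpG-rich promoter (84.6%, 82.6 to 86.4). The difference was -55.1 points (-57.0 to -53.0). The share rose at each step of the ratio, from 2.33% of 1757 genes below 0.1, through 32.2% of 1919 genes at 0.3 to 0.4, to 83.2% of 731 genes at 0.8 and over. No jump marked the threshold of 0.6, with 59.1% (56.8 to 61.3) just below it and 66.8% (64.4 to 69.0) just above. These levels depended on what counts as open. Counting any region that covered the gene start gave 44.8% of the CpG-poor genes and a difference of -25.2 points, since a region over a start may be centred over 100 bp into the gene. Classing by 250 bp on both sides of the gene start gave 15.6% of 10094 CpG-poor genes. CpG-poor genes had the lower share under each of these definitions.

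**Figure D3:**
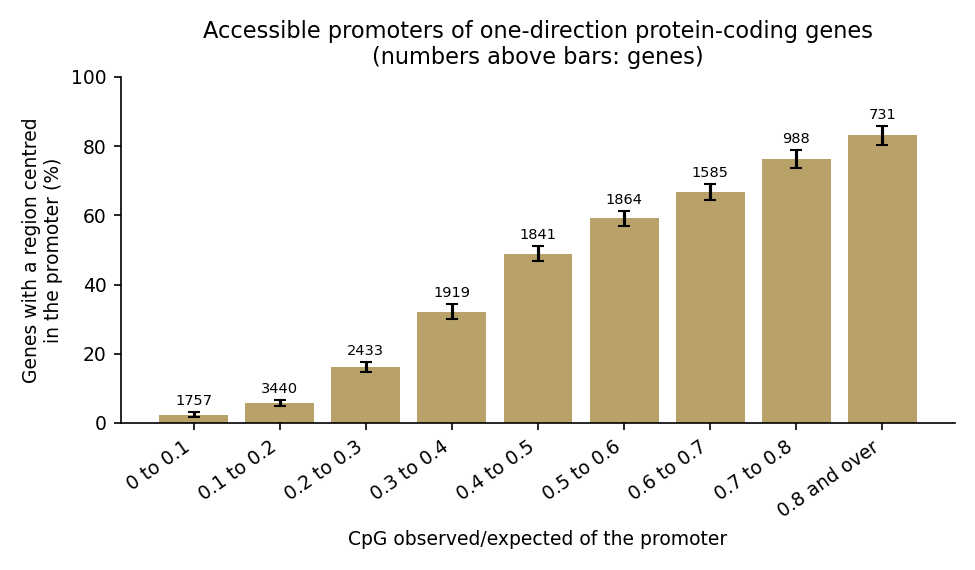
Share of autosomal protein-coding genes without an opposite-strand neighbour whose promoter holds the centre of an accessible region (vertical axis, %), by the CpG observed/expected ratio of the promoter (horizontal axis). Bars give the share, error bars its 95% Wilson interval and the numbers above them the genes; the share rises from 2.33% to 83.2%.

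Genes of the pluripotency network were well represented. Of 50 pluripotency and ES cell genes, 41 (82.0%) had a promoter region and 27 (54.0%) had a CpG-poor one, beside 54.4% and 18.7% over all autosomal protein-coding genes. Among the genes of the list with any promoter region, 65.9% had a member, and over all genes 34.3% did. The 27 genes held 38 members with a median width of 483 bp, and 73.7% of these covered their TSS, against 424 bp and 64.4% over all members. A member at any annotated TSS of a gene counts here. These shares thus do not say that the promoter at the start of the gene record was CpG-poor.

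Transcription factors of the naive state had members of many shapes. Zfp42 had a 453-bp region over its TSS (chr8:43306841-43307293), with 54.7% GC. Tbx3, a T-box factor, had 633 bp (chr5:119679862-119680494) and Zscan10, a zinc finger factor, 549 bp (chr17:23600744-23601292). Prdm14, a repressor of differentiation genes, had 210 bp over its TSS (chr1:13127061-13127270), and Klf4, a reprogramming factor, had 141 bp (chr4:55531717-55531857). Esrrb had a second member of 328 bp at an internal TSS (chr12:86504318-86504645). Nr5a2, a nuclear receptor that can take OCT4's place in reprogramming, had 557 bp that ended 11 bp upstream of its TSS (chr1:136953641-136954197). The region of Mybl2 was 225 bp wide and missed its TSS (chr2:163059104-163059328). These members thus ranged from regions over a TSS to narrow upstream patches. Among them, only those of Zfp42 and Prdm14 had the TSS at the first base of the gene record.

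Chromatin and metabolic genes of the ES cell state followed. Dppa4 had 944 bp (chr16:48283380-48284323) and Dppa2 had 913 bp (chr16:48303547-48304459) and 464 bp (chr16:48310052-48310515), all over a TSS. Dppa5a, an RNA-binding protein gene, had 431 bp (chr9:78367862-78368292). Dnmt3l, the cofactor of the de novo DNA methyltransferases, had 3 members, of 258, 246 and 404 bp, and Tet1 had members of 486 and 497 bp. Tdh had 666 bp (chr14:63500046-63500711) and 670 bp (chr14:63508456-63509125). L1td1, an RNA-binding protein gene derived from a LINE-1 element, had 565 bp (chr4:98726476-98727040), and Fbxo15, an F-box gene used as an early reprogramming reporter, had 930 bp with 42.8% repeats. Slc2a3, which encodes the glucose transporter GLUT3, had 3 members, of 882, 314 and 507 bp. Of the members in this paragraph, only those of Dppa5a and Fbxo15 and the 913-bp one of Dppa2 had the TSS at the first base of the gene record.

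Signalling and surface genes of the list also had members. Tcl1, a coactivator of the kinase AKT, had 855 bp over its TSS (chr12:105222408-105223262). Tdgf1, the NODAL coreceptor, had 480 bp over its TSS (chr9:110945960-110946439), while Nodal had 147 bp centred 224 bp upstream (chr10:61417675-61417821), 55.8% of them repeats. Lifr, a subunit of the LIF receptor, had 250 bp (chr15:7140314-7140563), 52.0% of them repeats. Among adhesion genes, Jam2 had 677 and 710 bp, and Epcam had 866 bp upstream of an annotated TSS (chr17:87635731-87636596). The Epcam region overlapped annotated exons over 42.1% of its bases, and that TSS was not the start of the gene record. Spp1 had 777 bp upstream and 317 bp over the same TSS, and Mras had 365 bp (chr9:99420297-99420661). The TSS was the first base of the gene record for Tcl1, Tdgf1, Nodal and Spp1, and was not for Lifr, Epcam, Jam2 and Mras.

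The 23 other genes of the list fell outside the class in different ways. Sox2, Fgf4, Klf5, Cdh1, Alpl, Fgf5, Il6st, Lefty1 and Socs3 had CpG-rich regions, Gbx2, Lin28a, Sall4 and Tet2 had bidirectional ones, and Otx2 had both. For 9 genes no region was centred in a promoter. Of these, 4 had a region over the start of the gene record that was centred further into the gene, among them Klf2 (159 bp downstream), Tfcp2l1 (174 bp) and Utf1 (250 bp). The closest region to Gdf3, a TGF-beta family gene, was 2265 bp wide and began 103 bp inside the gene. Nanog, a core factor of the naive state, had its closest region 4255 bp upstream of its start (1042 bp, chr6:122702193-122703234), Dppa3 1525 bp upstream, Lefty2 1144 bp downstream and Pecam1 8001 bp downstream. The genes of this last group were named after their values were seen, because the count alone does not tell the layouts apart. Why the list holds no region at the start of Nanog was not tested.

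Genes of blood, liver and muscle mostly had no promoter region in the list. Of 30 blood and immune genes 4 (13.3%) had a member, among them Cxcl10, a chemokine, Lck, a T cell kinase, and Mpo, the myeloperoxidase of neutrophils. Of 29 liver genes 4 (13.8%) did: Afp and Apob, a fetal serum protein and the main protein of low-density lipoprotein, F2, which encodes prothrombin, and Trf, transferrin. Of 30 striated muscle genes 5 (16.7%) did, among them Des (desmin), Pvalb (parvalbumin) and the troponin genes Tnni2 and Tnnt1. Liver members covered their TSS in 25% of cases and muscle members in 42.9%, so several lay upstream of the start. All 3 shares were below the 18.7% over all genes, though the lists are small. Among genes of these lists with any promoter region, however, a member was found at all 4 blood genes (100%), 83.3% of the muscle genes and 57.1% of the liver genes, beside 34.3% over all genes. The Afp member, for example, was 685 bp wide and ended 354 bp upstream of a TSS that was not the first base of the gene record (chr5:90500493-90501177). The Mpo member covered its TSS with 771 bp (chr11:87802110-87802880).

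The other lists of tissue and stage genes ranged widely around the 18.7% over all genes. Neural and glial genes had a member in 11 of 28 cases (39.3%), among them Camk2a, a synaptic kinase, Gfap, the filament protein of astrocytes, Map2, a microtubule protein of neurons, and Mbp, a protein of myelin. A promoter region of any class was found at 75% of the neural genes, and 52.4% of those had a member, beside 54.4% and 34.3% over all genes. Epithelial genes had a member in 7 of 30 (23.3%), among them the cadherin Cdh3, the claudin Cldn4, the splicing factor Esrp1 and the envoplakin gene Evpl. Germ line genes had 7 of 35 (20.0%), such as Brdt, Figla, Nobox and Piwil2, and these members were wide, with a median of 712 bp and 85.7% over their TSS. The germ line share was near that of all genes, also for any promoter region (51.4%) and among genes with one (38.9%). Trophoblast and extraembryonic endoderm genes had 4 of 29 (13.8%): Elf5, a trophoblast factor with 3 members, Gata3, Lamb1 and Sparc. Any promoter region was found at 51.7% of these genes, and 26.7% of those had a member. Among epithelial genes these shares were 46.7% and 50.0%. None of 21 annotated genes of the 2-cell stage had a member, and 2 had any promoter region. The lists are small, and no share is called particular to a list from these counts.

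Gene families spanned the whole range. Receptor families of the sensory epithelia were nearly closed, with a member at 10 of 1127 olfactory receptor genes (0.887%) and 1 of 326 vomeronasal receptor genes (0.307%). The olfactory members had a median width of 292 bp, 20.0% covered the TSS, and that of Olfr1298 was 97.3% repeats. Keratin-associated protein genes had 1 of 57, defensins 1 of 64 and prolactins 0 of 25. Cytochrome P450 genes had 9 of 100 and serpins 10 of 60 (16.7%). Genes with H2 symbols, which are MHC class I and II genes and neighbours such as H2-Ke6, had 5 of 34 (14.7%). Every olfactory, vomeronasal, keratin-associated and defensin gene with an open promoter had a member, as did 90.9% of such serpin genes and 52.9% of such P450 genes.

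In families of housekeeping complexes, open promoters were seldom CpG-poor. Proteasome subunit genes had a promoter region in 34 of 39 cases (87.2%) but a member in 4 (10.3%), at Psma5, Psma8, Psmb10 and Psmb5. Cytosolic ribosomal protein genes had a region in 58 of 84 (69.0%) and a member in 12 (14.3%), such as Rpl3 and Rpl21. Among genes with a promoter region, these are 11.8% and 20.7%, beside 34.3% over all genes. The solute carrier and Zfp families had a member more often than the 18.7% of all genes. They also had a promoter region of any class more often, at 61.5% and 74.3% of genes beside 54.4%. Among their genes with such a region, 42.3% and 41.6% had a member, beside 34.3% over all genes. Solute carriers, the large class of membrane transporters, had a member in 93 of 358 (26%). Zinc finger genes with Zfp symbols, many of them repressors of retroelements, had 119 of 385 (30.9%). Their members were wide for the class, with a median of 610 bp and 85.5% over the TSS. The plot of gene lists sets these shares beside those of all genes.

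**Figure D4:**
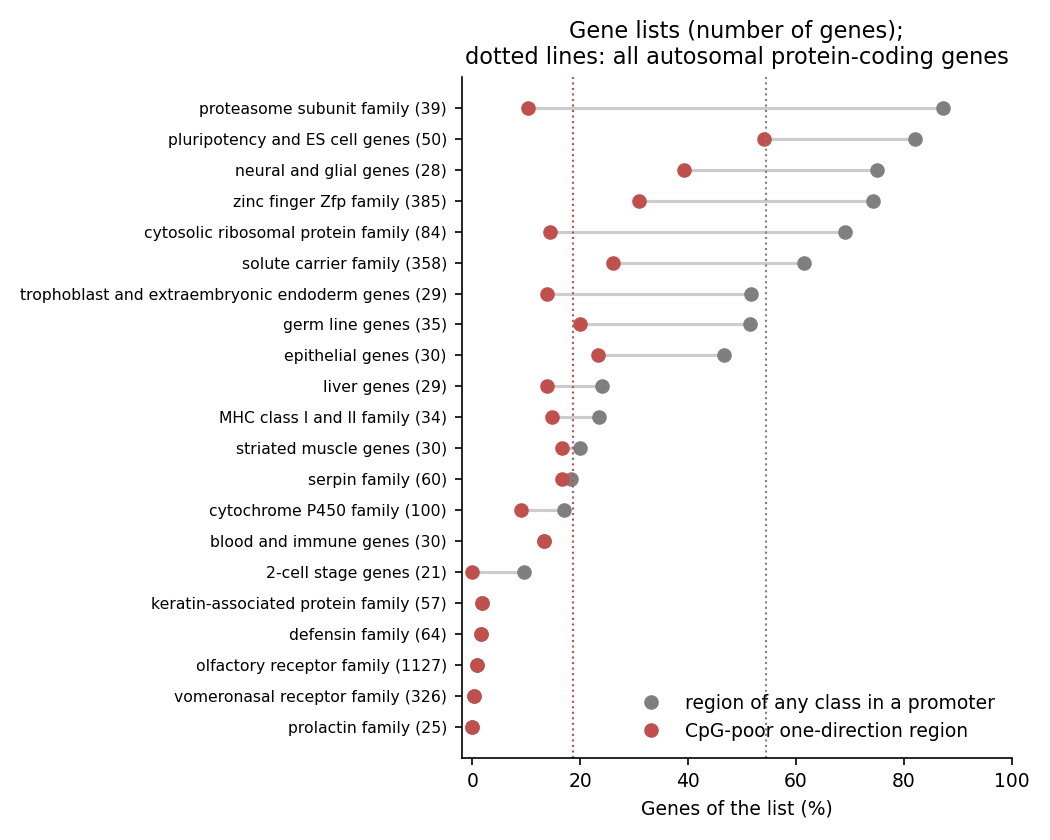
Share of the genes of each list (horizontal axis, %) with a promoter region of any class (grey) and with a CpG-poor region that faces a single direction (red); the number of genes is given beside each name. Dotted lines mark all autosomal protein-coding genes (54.4% and 18.7%), and the pluripotency list has the highest share with a CpG-poor region (54.0%).

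Motifs were counted in the central 300 bp of every region, or the 300 bp around the centre of a narrower one, on both strands. GC content differs between the classes, with a window median of 56.0% in members, 67.7% in CpG-rich regions and 50.3% outside promoters, and motifs follow it by their letters alone. Each difference was therefore also computed with both classes standardised to the GC content of the members in bins of 2.5 points. Of 24 motifs, 17 had a higher share in members than in CpG-rich regions and 7 a lower one, with intervals clear of 0. After the standardisation 9 were higher, 6 lower and 9 had an interval that includes 0, and 2 had changed direction. The 7 lower motifs (GC box, KLF, ETS, NRF1, YY1, CRE and E-box of MYC type) all have a CpG pair in their letters or in 1 of their forms. The rule chose members by CpG pairs, and equal GC content does not make CpG pairs equal. This bears on motifs with a CpG pair and on those without. All motif differences from CpG-rich regions are therefore given as a description and support nothing, also at equal GC content. The intervals were not adjusted for the number of motifs.

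Motifs of general promoter factors came first in frequency. The GC box GGGCGG, bound by SP factors, was in 37.3% of the members, 75.6% of CpG-rich regions, 16.7% of regions outside promoters and 25.2% of the whole list. After the standardisation it was more frequent than outside promoters (11.0 points, 95% interval 9.63 to 12.3). The NF-Y motif CCAAT, the classic CCAAT box, was in 34.7% of the members, 30.2% of CpG-rich regions and 31.4% of the list. Its difference from CpG-rich regions turned from 4.52 points to -9.43 (-12.9 to -5.91) at equal GC content. Why the direction changed was not tested. In members over the TSS, both motifs were frequent close to the start, with the NF-Y motif in 14.9% and the GC box in 17.2% at 51 to 100 bp upstream, against 7.62% and 4.51% at 201 to 250 bp. CpG-rich regions over the TSS had the same pattern. There the NF-Y motif was in 14.9% and the GC box in 35.9% at 51 to 100 bp, against 6.8% and 13.4% at 201 to 250 bp.

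Most other motifs typical of CpG islands were scarce in members but more frequent than outside promoters. The ETS motif CCGGAAGT was in 3.01% of the members, 6.42% of CpG-rich regions, 0.816% of regions outside promoters and 1.74% of the list. The NRF1 partial motif GCGCATGCG, of a regulator of mitochondrial genes, was in 0.968%, 2.85%, 0.26% and 0.632%, in the same order. The CRE TGACGTCA, bound by CREB, was in 1.43%, 2.85%, 0.405% and 0.767%. At equal GC content these 3 motifs were still more frequent in members than outside promoters. The YY1 motif AAGATGGCG was in 0.924% of the members, below both CpG-rich regions (3.34%) and regions outside promoters (1.85%), with 2.06% in the list. The E-box of MYC type, CACGTG, was in 8.38% of the members, 10.1% of CpG-rich regions and 6.79% of the list, and at equal GC content its difference from CpG-rich regions had an interval that includes 0 (-0.976 points, -2.99 to 1.03).

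The octamer and the SOX motif were more frequent in CpG-poor than in CpG-rich promoters and less frequent than outside promoters, before GC content was made equal. The octamer was in 68 members (1.5%, 95% interval 1.18 to 1.89), 0.797% of CpG-rich regions, 2.35% of regions outside promoters and 2.15% of the list. Its difference from CpG-rich regions was 0.698 points (0.299 to 1.14), and at equal GC content it was 0.087 (-0.465 to 0.639). From regions outside promoters the octamer differed by -0.858 points (-1.19 to -0.445), and by -0.109 (-0.472 to 0.255) at equal GC content. The SOX motif was in 436 members (9.59%, 8.77 to 10.5), 4.78% of CpG-rich regions, 14.1% outside promoters and 12.7% of the list. At equal GC content the SOX motif still differed from CpG-rich regions by 2.28 points (0.46 to 4.11) and from regions outside promoters by -2.32 points (-3.22 to -1.41). The CpG-rich class was set apart from the members by CpG pairs, which stay unequal in that comparison. Both octamer differences thus had intervals that include 0 once GC content was equal, and both SOX differences were reduced. Over whole regions, where CpG-rich regions offer more bases, the SOX difference was 0.284 points with an interval that includes 0 (-1.01 to 1.6).

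Shorter and related motifs were counted too. The POU core ATGCAAA, which every octamer contains, was in 4.68% of the members and 5.85% of the list, and the SOX core CATTGT or CTTTGT, contained in the SOX motif, in 26.7% and 32.8%. Octamer and SOX motif stood together in 6 members (0.132%), 3 CpG-rich regions (0.046%) and 260 regions outside promoters (0.414%). The composite was in 1 member, 1 CpG-rich region and 20 regions outside promoters, out of 22 in the list. Counted over the whole region, 116 members held an octamer, and 13 of these belonged to a gene list. Besides Zfp42, Dppa2 and Tdh, they were the transporters Slc7a11, which imports cystine, Slc9a2, Slc25a12 and Slc39a14, the zinc finger genes Zfp120, Zfp345, Zfp788 and Zfp930, Cyp2j9 and Olfr548-ps1.

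The partners of the pluripotency network varied more. The ESRRB motif was in 1.25% of the members, 0.169% of CpG-rich regions, 2.16% of regions outside promoters and 1.84% of the list. At equal GC content both ESRRB differences had intervals that include 0 (0.436 points, 95% interval -0.316 to 1.19, from CpG-rich regions, and -0.293 points, -0.633 to 0.0472, from regions outside promoters). The nuclear receptor monomer motif CAAGGTCA, contained in the ESRRB motif, was in 2.82% of the members and 4.42% of the list, and at equal GC content it was 1.29 points (0.426 to 2.15) above CpG-rich regions. The KLF motif, GGGTGTGG or GGGCGTGG, was in 12.0% of the members and 13.3% of CpG-rich regions, with 10.6% in the list. Its difference from CpG-rich regions was -1.31 points, and 2.88 (0.669 to 5.09) at equal GC content. The STAT motif TTCCNGGAA, where N is any base, read by the LIF pathway's STAT3, was in 1.47% of the members, 0.904% of CpG-rich regions and 1.31% of the list, and its difference from CpG-rich regions was -0.00989 points (-0.958 to 0.938) at equal GC content. Of the 38 members at pluripotency genes, 5 held the SOX motif in the 300-bp window, 1 the octamer, 3 the ESRRB motif and 8 the KLF motif. In that window the shares of all members were 9.59%, 1.5%, 1.25% and 12.0%, in the same order. The 38 members had a median width of 483 bp, beside 424 bp for all members, so a search over whole regions covers more bases in them. Over their whole width, 10 held the SOX motif (26.3%, beside 13.9% of all members over the whole width), 3 the octamer (7.89% beside 2.55%), 3 the ESRRB motif (7.89% beside 1.8%) and 11 the KLF motif (28.9% beside 16.2%). Other motifs were also higher at these 38 members, such as the NF-Y motif (65.8% beside 43.7%), the E-box of MYC type (21.1% beside 12.0%) and the TEAD motif (31.6% beside 23.6%), while the POU core was nearly equal (7.89% beside 7.37%). The ETS, NRF1, YY1, CRE and forkhead motifs were in none of the 38, and in 4.02%, 1.34%, 1.3%, 1.85% and 4.38% of all members, so that few or no matches among 38 regions are near those shares.

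Before GC content was made equal, motifs of lineage and signalling factors mostly lay between the other classes. The GATA motif AGATAA was in 8.07% of the members, 2.18% of CpG-rich regions, 11.8% outside promoters and 10.4% of the list. The AP-1 motif TGANTCA, of FOS and JUN factors, was in 7.24%, 2.85%, 9.57% and 8.53%, in the same order, and the TEAD motif GGAATG, of the Hippo pathway, in 16.0% of the members, 8.45% of CpG-rich regions and 17.6% of the list. The forkhead motif TGTTTAC was in 2.97% of the members and 3.73% of the list, and the T-box monomer motif AGGTGTGA in 1.45% and 1.67%. At equal GC content the differences of these 5 motifs from regions outside promoters had intervals that include 0. Against CpG-rich regions the GATA, TEAD and T-box motifs were still higher in members, and the AP-1 and forkhead intervals include 0. The E-box of MyoD type, CAGCTG, was more frequent in members (21.7%) than in CpG-rich regions (15.7%) and outside promoters (18.6%), with 18.4% in the list, and at equal GC content the difference from CpG-rich regions was 8.8 points (6.1 to 11.5) while that from regions outside promoters was -0.326 (-1.59 to 0.941). The REST partial motif TCAGCACC, of the repressor of neuronal genes, was in 2.93% of the members, 1.87% of CpG-rich regions and 2.15% of the list. At equal GC content its difference from CpG-rich regions was 2.07 points (1.41 to 2.74), and that from regions outside promoters had an interval that includes 0 (0.447, -0.0676 to 0.962). The ZFX core AGGCCT was in 12.0% of the members and 11.6% of the list, and at equal GC content it was 4.27 points (2.47 to 6.06) above CpG-rich regions and differed by -1.61 (-2.62 to -0.603) from regions outside promoters.

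**Figure D5:**
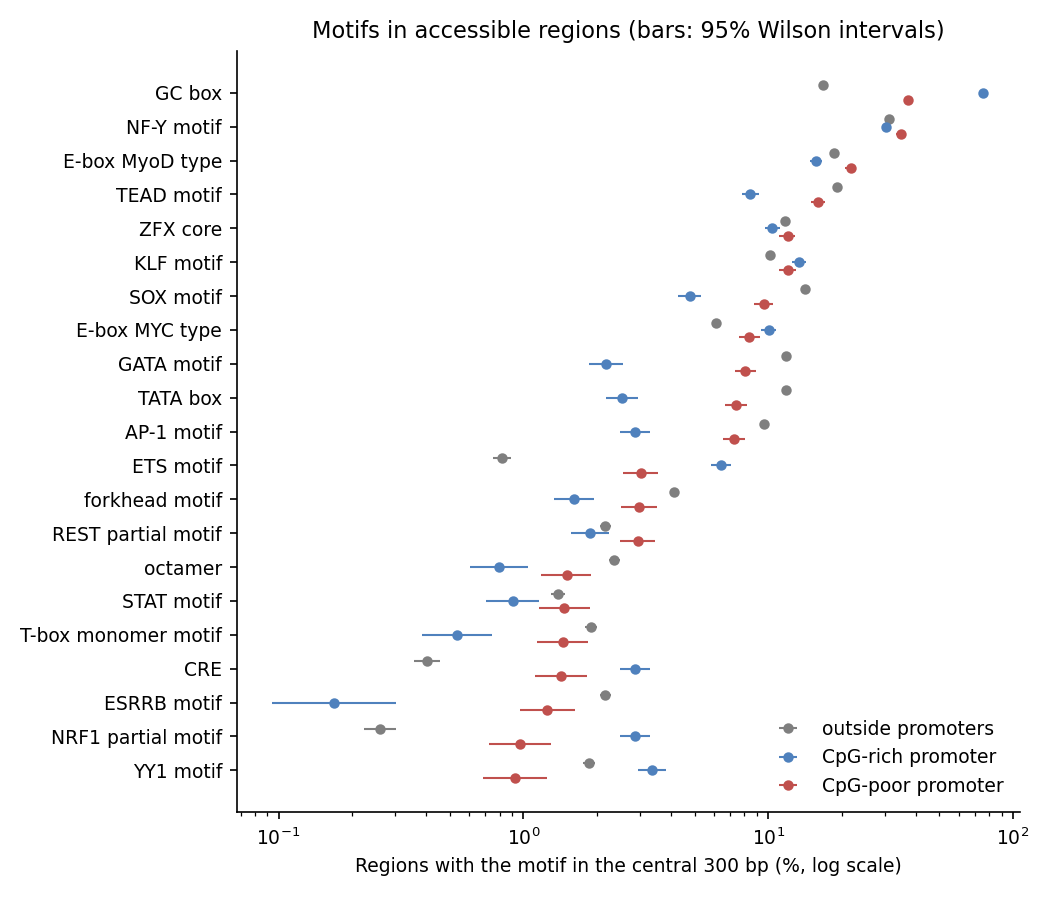
Share of regions with each motif in the 300 bp around the centre (horizontal axis, %, log scale) in CpG-poor promoter regions (red), CpG-rich promoter regions (blue) and autosomal regions outside promoters (grey), with 95% Wilson intervals as bars. Members lie between the other classes for the SOX motif (9.59%, between 4.78% and 14.1%) and the GC box (37.3%, between 75.6% and 16.7%).

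TATA boxes, TATAAA, were rare at these starts. As letters anywhere in the window they were in 7.37% of the members, 2.53% of CpG-rich regions and 10.4% of the list, a difference from CpG-rich regions that was -0.0239 points (95% interval -1.52 to 1.47) at equal GC content. At the usual distance of a working box, on the gene's strand 40 to 20 bp upstream of the TSS, 45 members (0.99%, 0.74 to 1.32) and 44 CpG-rich regions (0.675%, 0.503 to 0.904) had one. The difference of 0.315 points has an interval that includes 0 (-0.0238 to 0.689). Over all autosomal protein-coding TSSs the share was 1.1%, so the TSSs of members were not richer in TATA boxes than annotated starts in general. With the search widened to between 60 and 10 bp upstream, the difference was 0.776 points with an interval clear of 0 (0.356 to 1.23). Among regions covering the TSS, an alternative added after seeing the data, it was 0.0703 points (-0.302 to 0.512), and among the others 1.3% of the members and 0.127% of the CpG-rich regions had a box.

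Members with a placed TATA box were spread over many kinds of genes. Of the 45 regions, at 42 genes, 7 belonged to a gene list. Dppa2 had its TATA box at the inner of its TSSs, within the 464-bp region, and Slc2a3 within the 882-bp region (chr6:122742092-122742973). Serpinb1a, an inhibitor of neutrophil proteases, Slc38a9, a lysosomal amino acid sensor, and Krtap5-5, a hair protein gene, each had a box at a TSS that lay outside the region counted, though for Serpinb1a another member covered it. Of all members with a box, 24 covered the TSS and 21 did not.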

How the data were processed

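ATAC-seq was performed by the authors on 12 libraries. The authors aligned reads with STAR (2.5.3a) to mm10, kept unique alignments, removed duplicates with Picard and called peaks per library with MACS2 (2.1.1.20160309). BEDOPS joined the peaks across libraries, and those found in a ChIP input were dropped. The deposited list gives region coordinates in bp alone.

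Regions were read with Python (3.11.15), numpy (2.4.6), pandas (2.3.3) and pysam (0.24.0), annotated with GENCODE M21 and plotted with matplotlib (3.10.9). Shares have 95% Wilson intervals, differences between shares Newcombe intervals, medians order-statistic intervals and standardised differences normal intervals. They cover counting error only, and regions are not replicates. The functions were tested on simulated data. Standardisation used GC bins of 2.5 points with at least 20 regions in both classes, which kept 3554 members against CpG-rich regions and 4496 against regions outside promoters.

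Members and gene lists were chosen with earlier results of these data known. Named genes are all pluripotency genes with a member, the 5 widest members, the 5 with the lowest ratio among those of at least 300 bp, the 5 genes with the most members, those at the thresholds, listed genes with a placed TATA box or an octamer, the composite, and up to 4 examples per list in alphabetical order. Alternatives varied the promoter limits, base criteria, annotation, neighbour distance, joining of regions, motif windows and definition of an open gene.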

Additional observations from a re-analysis of the deposited data

How the results depend on the processing

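In all, 12 results were recomputed in 61 combinations of a result and an alternative setting, 3 of them added after seeing the data. Each result was run under some of the settings only. No difference changed direction. In 36 of these combinations the result was counted as the same, which does not mean an equal value. The member counts among them ran from 3393 to 4945, beside 4547 in the main setting. No paired analysis was possible because the list gives coordinates alone, although the labels share replicate numbers. The cause of a change was not tested unless the setting itself removes or adds regions.

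The number of members, their median width and the share covering the TSS became 7080, 393 bp and 49.89% with promoters from 2000 bp upstream to 500 bp downstream, 1919, 356 bp and 52.94% when both criteria were required, 2169, 327 bp and 51.96% with a ratio below 0.4 alone, and 2918, 481.5 bp and 68.95% with TSSs of basic transcripts only. Promoters from 500 bp upstream gave a width of 466 bp and a share of 79.29%, and TSSs of protein-coding transcripts only gave 462 bp and 68.29%.

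The share of CpG-poor genes with an open promoter was 15.58% with the class from 250 bp on both sides of the start, 49.69% counting any overlap, 44.77% counting regions over the start and 48.64% counting any transcript start. The TATA difference was 0.7756 points at 60 to 10 bp upstream, 1.117 points for TATA alone and 0.07032 points in regions covering the TSS. Standardised to GC content, the octamer differences were 0.08701 points from CpG-rich regions and -0.1086 points from regions outside promoters, and over whole regions the SOX difference was 0.2839 points. The list does not give the reads behind a region, which limits what the absence of one can mean.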
